A study of Homo sapiens with 18 samples.

Results

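Long intergenic noncoding RNAs, or lincRNAs, are transcripts that lie between protein-coding genes and carry no long open reading frame. Some act as scaffolds in the nucleus, others are hosts from whose introns or exons microRNAs or small nucleolar RNAs are cut, and many start back to back with a coding gene at a shared promoter. Most are present at low levels and show strong cell type preference, and in breast cancer cells several have been described as responding to stress and to p53. The members described here are the 205 genes with the biotype lincRNA among the 3508 genes that the authors listed for the combination of fenofibrate and ezetimibe against DMSO, out of 3647 genes in any of their 3 tables. Of these members 45 have a LINC symbol and 115 only the name of a sequenced clone.

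The samples were Cal51 cells, a human breast cancer cell line, treated for 8 h with fenofibrate plus ezetimibe (the combination), ezetimibe, fenofibrate or DMSO, with 3 libraries per group. Fenofibrate is a fibrate whose active form activates the nuclear receptor PPARα, ezetimibe inhibits the sterol transporter NPC1L1, and DMSO is the solvent control. The labels give no dose. The other 6 of the 18 libraries, from PKM2 knockout cells and their control, are not analysed here. Cal51 is 1 line, and nothing in the labels says that the libraries came from separate cultures, so the p-values measure the spread between these libraries, which may be technical.

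Each table lists only genes that the authors called in the same libraries: every listed gene had an adjusted p under 0.05 and a change of more than 1 in either direction on the log2 scale. A member's change against DMSO is therefore a description of a gene already chosen for it. Its direction and neighbours were not used in the choice. The difference between treatments was not used either, but it can be given only for genes listed with both. The level of a member bears on the choice, since a gene of few reads needs a larger change to be called. The libraries of the combination table held 2550718 to 3265200 reads in its genes, and their depth over all genes is not known. Of the markers of breast epithelial, mesenchymal, endothelial and blood cells looked up, GATA3 and COL1A1 were listed with the combination and GATA3 and CDH5 with ezetimibe. An unlisted marker can have any level, so the cell type could not be checked. In bulk RNA, fewer cells with a transcript and less of it per cell cannot be told apart.

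The sequences that bear on the findings belong to 2 kinds of lincRNA. The first are hosts of microRNAs. On the same strand, 5 members held 9 of the microRNA hairpins that could be looked up in RefSeq coordinates of GRCh38.p14. Of these hosts 4 rose and 1 fell. The hairpins looked up were not complete: miR-22 was missing, so MIR22HG is not counted here, and other hosts can be missed. The 7 mature sequences below are shown because they group the hosts by seed, the bases 2 to 8 that pair with a target, given in capitals. The mature microRNAs themselves were not measured.
hsa-let-7a-5p: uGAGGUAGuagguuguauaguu
hsa-let-7b-5p: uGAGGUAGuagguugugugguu
hsa-let-7i-5p: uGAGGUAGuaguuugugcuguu
hsa-miR-29a-3p: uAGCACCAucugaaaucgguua
hsa-miR-29b-3p: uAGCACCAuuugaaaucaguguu
hsa-miR-34a-5p: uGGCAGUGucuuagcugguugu
hsa-miR-210-3p: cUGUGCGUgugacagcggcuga
The sequences of let-7a and let-7b lie in MIRLET7BHG and that of let-7i in AC048341.1, and all share the seed GAGGUAG. Those of miR-29a and miR-29b lie in AC016831.6 and share AGCACCA. The sequence of miR-34a lies in MIR34AHG and that of miR-210 in MIR210HG.

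The second kind starts head to head with a coding gene. For 5 such pairs the whole stretch between both annotated starts could be read from RefSeq promoter windows, and it is printed on the strand of the lincRNA, ending at the base before its start. Capitals mark matches, on either strand, to the motifs CCACG (part of the endoplasmic reticulum stress element), GCGTG (core of the dioxin element) and TGACNNNGC (core of the antioxidant element). The stretches lie at chr13:95676926-95677138 on the minus strand (DNAJC3), chr20:44210792-44210959 on the plus strand (OSER1), chr3:49554367-49554488 on the minus strand (BSN), chr4:39639091-39639139 on the plus strand (SMIM14) and chrX:46545458-46545492 on the plus strand (ZNF674), all in GRCh38.p14.
DNAJC3-DT: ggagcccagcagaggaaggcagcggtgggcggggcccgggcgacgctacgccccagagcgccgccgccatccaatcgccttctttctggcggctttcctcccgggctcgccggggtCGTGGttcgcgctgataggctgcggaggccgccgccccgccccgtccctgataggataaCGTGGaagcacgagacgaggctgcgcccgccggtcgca
OSER1-DT: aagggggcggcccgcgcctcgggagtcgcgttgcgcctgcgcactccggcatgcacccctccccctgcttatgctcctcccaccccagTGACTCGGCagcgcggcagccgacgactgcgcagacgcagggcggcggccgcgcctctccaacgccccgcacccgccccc
BSN-DT: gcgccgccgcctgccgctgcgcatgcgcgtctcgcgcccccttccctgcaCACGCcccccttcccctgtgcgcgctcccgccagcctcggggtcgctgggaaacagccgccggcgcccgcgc
AC108471.2: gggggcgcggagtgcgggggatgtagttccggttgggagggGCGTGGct
ZNF674-AS1: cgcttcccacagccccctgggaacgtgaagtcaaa
In the DNAJC3-DT stretch CCACG lies on the opposite strand, as CGTGG, with its first printed base 97 and 38 bases before the start of the lincRNA. The OSER1-DT stretch holds TGACNNNGC at 80 bases before the start. In the AC108471.2 stretch GCGTG and CCACG overlap by 4 bases. The ZNF674-AS1 stretch holds none of the 9 motifs searched.

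With the combination, 155 of the 205 lincRNAs were higher than with DMSO and 50 were lower, where 58.7% of the table was higher and 41.3% lower. The share higher was 75.6%, with a 95% Wilson interval of 69.3 to 80.98% that covers counting error over genes only, against 54.3% of the 2741 protein-coding genes in the table. The median log2 fold change was 1.77 over the lincRNAs, 1.06 over the protein-coding genes and 1.16 over all genes. Small changes are not listed, so these medians depend on the shares higher and on level. Among higher genes with a mean count under 20, the medians were 2.59 for lincRNAs and 2.57 for protein-coding genes. They were 1.68 and 1.79 from 20 to 50, 1.53 and 1.61 from 50 to 100, and 1.34 and 1.42 from 100 to 200. Above that they were 1.96 (4 lincRNAs) and 1.43, then 2.42 (3 lincRNAs) and 1.40. All 205 passed limma's adjusted p of 0.05, as did 100% of the table, which only restates how the table was made. The values of the 3 treated and 3 DMSO libraries did not overlap for 199 lincRNAs, or 97.1%, against a background of 99.0%.

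The lincRNAs were read at lower levels than the coding genes. Their median normalised read count over the 6 libraries was 19.9, against 279 for protein-coding genes, and per kb of listed length the medians were 11.1 and 56.8. Their median listed length was 1874 bases, against 4860 for protein-coding genes. The median standard error of a log2 fold change was accordingly wider, at 0.397 for lincRNAs and 0.175 for protein-coding genes. The 205 were 2.69% of the 7629 lincRNAs in GENCODE release 29, while 13.7% of its 19951 protein-coding genes were listed. Exons of 57 of the 205 overlap an exon of another annotated gene on either strand, and 31 of the 205 overlap the body of a protein-coding gene. Reads of both genes could be mixed there, and the labels do not say whether reads were counted by strand.

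Level changed the comparison of directions. When protein-coding genes were weighted to the level classes of the lincRNAs, 73.4% of them were higher, close to the 75.6% of lincRNAs. Below a mean of 20, 77.9% of 104 lincRNAs were higher, against 82.5% of 355 protein-coding genes. Between 20 and 50 the shares were 67.8% of 59 lincRNAs and 71.4% of 287 protein-coding genes.

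Above that level the kinds of gene parted. Between 50 and 100, 88.2% of 17 lincRNAs were higher, against 60.5% of 266 protein-coding genes. Between 100 and 200, 85.7% of 14 lincRNAs were higher, against 51.5% of 301 protein-coding genes. From 200 to 500 it was 4 of 8 lincRNAs and 47.5% of 474 protein-coding genes, and the 3 lincRNAs at 500 or more (NEAT1, SNHG8 and SNHG15) all rose, against 42.5% of 1058 protein-coding genes. In all, 34 of the 42 lincRNAs with a mean of at least 50 were higher, a share of 81.0% with a Wilson interval of 66.7 to 90.0%, against 53.7% of protein-coding genes weighted to the same classes. The mean includes the combination libraries, so a gene with few DMSO reads can reach a mean of 50 only by rising. The lowest DMSO mean among the 42 was 4.27. Likewise, a gene with few reads with the combination can reach it only by falling. Direction and level class are thus not independent. This division at 50 was looked at after the classes were seen and was not tested. The standard errors at equal level were close, for example 0.494 for lincRNAs and 0.473 for protein-coding genes below a mean of 20.

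**Figure D1:**
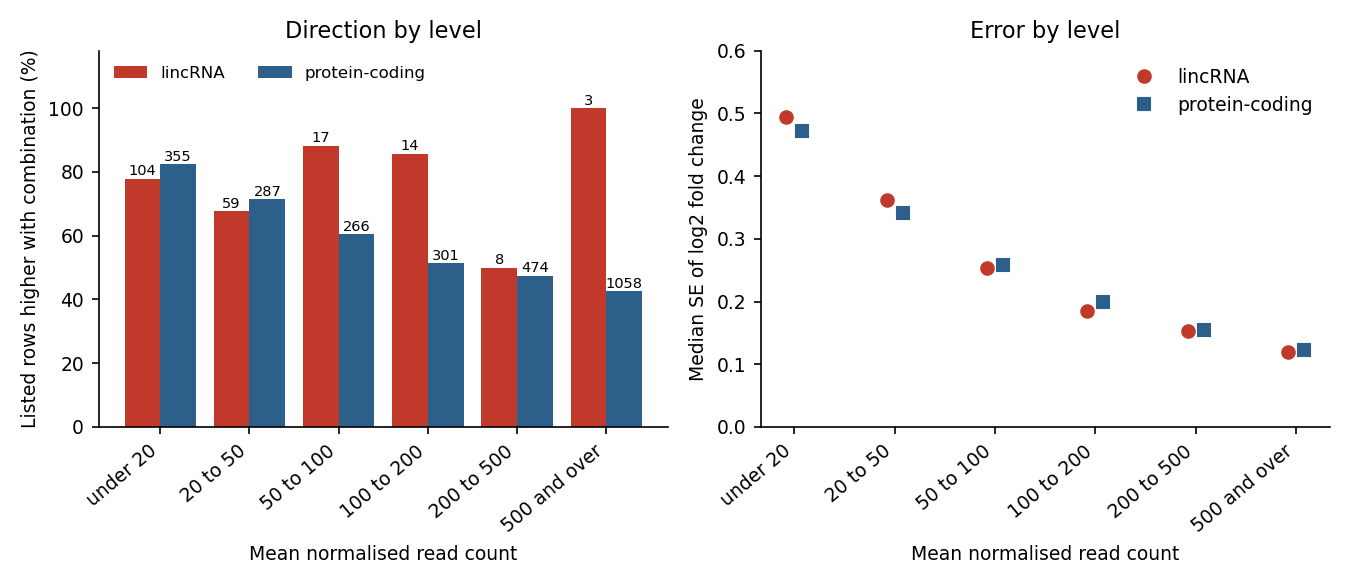
Left, bars give the percentage of listed genes higher with the combination in classes of mean normalised read count over 6 libraries, for lincRNAs and for protein-coding genes, with the number of genes above each bar. Right, points give the median standard error of the log2 fold change in the same classes; below a mean of 50 the shares lie within 5 percentage points of each other, while from 50 to 200 the lincRNA bars stand higher.

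NEAT1, the RNA scaffold of nuclear paraspeckles, was the most abundant listed lincRNA by normalised read count. It had 4104, 4251 and 4419 normalised reads with the combination, against 645, 756 and 687 with DMSO. The lowest treated library thus held over 5 times the highest DMSO library. The log2 fold change was 2.61 ± 0.10 (SE), with a limma adjusted p of 1.83e-08 over all genes of the table. NEAT1 (chr11:65422774-65445540, plus strand, hg38) holds annotated small RNA genes in its exons, and reads of these cannot be told from its own.

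Small nucleolar RNAs guide the modification of ribosomal RNA. All 3 lincRNAs listed under the names of their hosts rose, where 75.6% of all listed lincRNAs and 58.7% of the table were higher, and 2 of them were the other lincRNAs above a mean of 500. LINC02001, renamed SNHG30 since, fell and is given with the falls. SNHG8 had 1174, 939.6 and 1001 normalised reads with the combination, against 189.5, 227.7 and 163.3 with DMSO, a log2 fold change of 2.42 ± 0.15 (SE). SNHG15 had 1480, 1204 and 1260 with the combination, against 416.1, 469.1 and 404.5 with DMSO, a log2 fold change of 1.61 ± 0.12. EPB41L4A-AS1, which lies against the coding gene EPB41L4A on the other strand, had 748.6, 571.7 and 673.2 with the combination, against 146.5, 145.1 and 114.2 with DMSO. No library of either group crossed into the other for these 3 hosts, as for 99.0% of the table. Per kb of listed length SNHG8 was the highest of all members, at 1125 normalised reads per kb with the combination and 209.6 with DMSO. The labels do not say whether reads were counted by strand, so part of the EPB41L4A-AS1 reads could come from the overlapping exon of EPB41L4A. GENCODE release 29 annotates 10 genes of this list as lincRNAs, of which 7 were not listed.

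**Figure D2:**
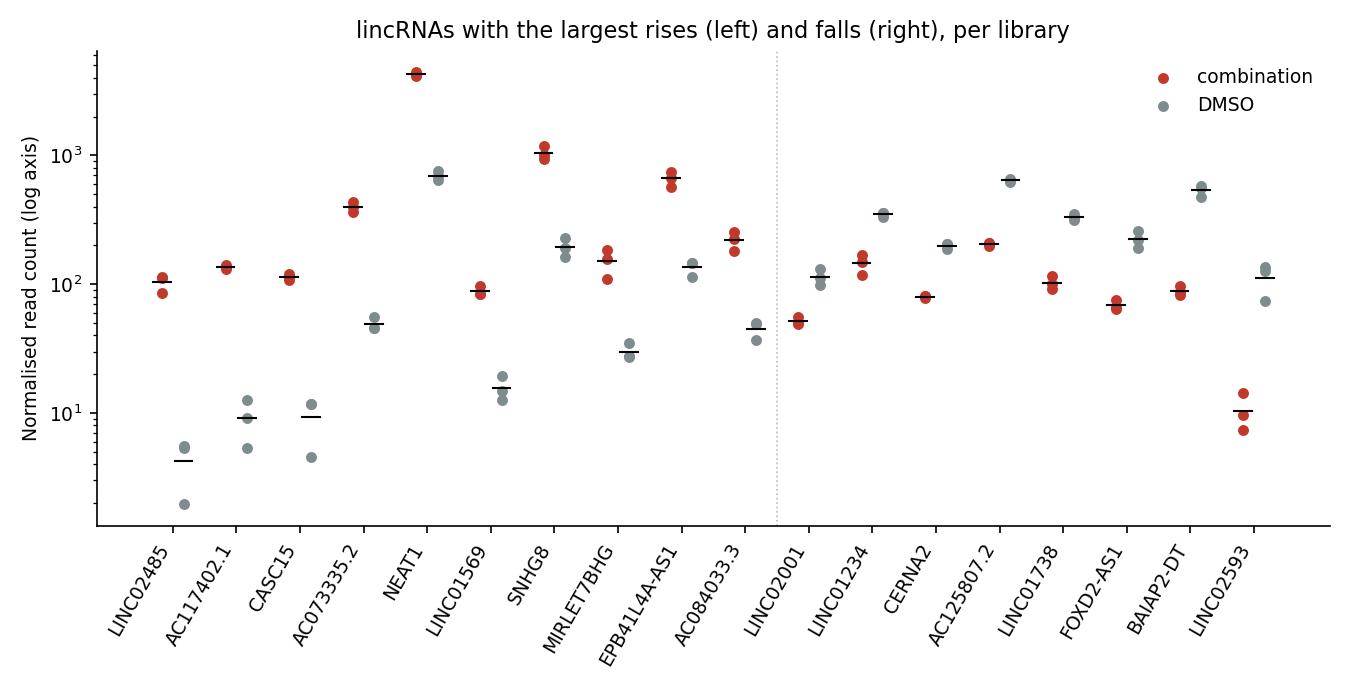
Points give the normalised read count (log axis) of single libraries for the 10 lincRNAs with the largest rises, left of the dotted line, and the 8 lincRNAs with falls, right of it, among those whose mean was 50 or more and whose groups did not overlap; black bars are group means over 3 libraries. Within each gene the combination stands left of DMSO; LINC02485 had the steepest rise of these and LINC02593 the steepest fall.

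Other rises were as clear at lower levels. LINC02485 had 85.5, 113 and 111 normalised reads with the combination, against 1.95, 5.51 and 5.34 with DMSO, and its log2 fold change of 4.38 ± 0.37 (SE) was the largest among lincRNAs with a mean of at least 50. AC117402.1 had 135.9, 140.8 and 131.2 with the combination, against 12.7, 9.18 and 5.34 with DMSO. CASC15, a long locus first described for neuroblastoma risk, had 107.4, 119.5 and 114 with the combination, against 11.7, 4.59 and 11.7 with DMSO. In all 3 the DMSO libraries held few reads, and the added 1 draws the log2 change towards 0. AC073335.2, now named LINC02604, rose 8.15-fold, to a mean of 400 ± 36.2 with the combination against 49.1 ± 5.54 with DMSO (SD, n = 3 each; limma adjusted p = 1.44e-07). LINC01569 rose by a log2 fold change of 2.45 ± 0.26 (SE) and AC084033.3, now named GIHCG, by 2.26 ± 0.21.

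The largest log2 fold change of any member was that of AC034213.1, whose mean of 49.6 lay just under the level asked of the genes named by rule, so it is named after its values were seen. It had 116.2, 99.1 and 81.4 normalised reads with the combination, against 0, 0.918 and 0 with DMSO, which is 298 reads against 1 read. The ratio of means was 323, with a 95% counting interval of 53.3 to 11864. In 19 lincRNAs, or 9.27%, no DMSO library held a read, against 2.59% of protein-coding genes, and another 27 lincRNAs had 1 to 3 DMSO reads in all. These shares were not matched for level. A mean under 20 was found for 104 of the 205 lincRNAs, but for only 355 of the 2741 protein-coding genes. Among the 19, LINC00237 was at least 34.6-fold higher and AC007405.3 at least 26.8-fold higher with the combination, both against a floor of 3 reads over the DMSO group. AC007405.3 was even between treated libraries, with 28.5, 23.2 and 27.8 normalised reads, while LINC00237 had 21.9, 21.3 and 59.4.

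Of the 42 lincRNAs with a mean of at least 50, 8 fell. BAIAP2-DT, the transcript divergent from the gene of an actin-linked adaptor, had 97.5, 87.1 and 82.4 normalised reads with the combination, against 561.6, 576.5 and 477.1 with DMSO, a log2 fold change of -2.58 ± 0.15 (SE). LINC02593 had 14.2, 7.41 and 9.58 with the combination, against 126.0, 135.9 and 73.6 with DMSO, a log2 fold change of -3.30 ± 0.34. AC125807.2 had 198.4, 209.4 and 207.8 with the combination, against 649.5, 661.0 and 621.2 with DMSO. The rule that named these genes required groups without overlap, which 99.0% of the table had, and AC125807.2 was the most even within groups. The other 5 falls, in LINC01738, FOXD2-AS1, CERNA2, LINC01234 and LINC02001, had log2 fold changes from -1.68 to -1.12. The exons of LINC02001 overlap a small nucleolar RNA gene, so its count is uncertain. At 0 reads in all combination libraries were AC098936.1, AC242988.2 and FILNC1, which were at least 4.29-fold, 4.41-fold and 6.82-fold lower against a floor of 3 reads.

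Of 45 well-known lincRNAs looked up, 33 are annotated as lincRNAs in GENCODE release 29. Of these 7 were listed, where 2.69% of all annotated lincRNAs were. All 7 were higher, where 75.6% of all listed lincRNAs and 58.7% of the table were higher. Besides NEAT1 and CASC15 the 7 were LINC00346, LINC00941, LINC00662, PVT1 and UCA1. LINC00346 had 93.2, 74.1 and 68.0 normalised reads with the combination, against 11.7, 7.34 and 4.27 with DMSO. PVT1, the neighbour of MYC, had 217.0, 181.6 and 225.0 with the combination, against 71.3, 92.7 and 101.4 with DMSO, a log2 fold change of 1.23 ± 0.19 (SE). UCA1 had a log2 fold change of 1.22 ± 0.33 and LINC00662 of 1.42 ± 0.17. LINC00941 (2.27 ± 0.24) overlaps a second annotation entry of the same name, so its reads could be split between both. The list was drawn up with earlier results of these data known, and the unlisted genes can be unchanged or too low to call.

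Among microRNA hosts the direction was mixed. MIR22HG, the host of miR-22, had 689.4, 608.8 and 651.2 normalised reads with the combination, against 223.7, 224.9 and 184.7 with DMSO, a log2 fold change of 1.62 ± 0.13 (SE). MIRLET7BHG, which holds the let-7a and let-7b sequences above, had 185.2, 156.6 and 109.2 with the combination, against 27.3, 34.9 and 27.8 with DMSO. MIR34AHG, the host of the p53 target miR-34a, had 129.3, 98.2 and 118.7 with the combination, against 45.9, 44.1 and 43.8 with DMSO. None of these hosts overlapped between groups, as for 99.0% of the table, and MIRLET7BHG varied most between treated libraries.

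MIR210HG, the host of miR-210, which is known as a target of the hypoxia-inducible factors, fell. It had 6.58, 3.71 and 1.92 normalised reads with the combination, against 42.0, 33.1 and 28.8 with DMSO, a log2 fold change of -2.90 ± 0.41 (SE; limma adjusted p = 6.17e-05). AC048341.1, around let-7i, had 49.3, 34.3 and 51.7 with the combination, against 26.4, 11.0 and 27.8 with DMSO, a log2 fold change of 1.10 ± 0.38, which was 0.69 (adjusted p = 0.0480) without DMSO replicate 2 and was not called without combination replicate 1 or 3. Its exons overlap LINC01465 on the other strand, so its count is uncertain. AC016831.6, around both miR-29 sequences, had 3.29, 10.2 and 23.0 with the combination, against 0, 0.918 and 0 with DMSO. That is 38 reads against 1 read, a ratio of means of 39.7 with a counting interval of 6.45 to 1547. Exons of LINC-PINT on the same strand and of MKLN1 on the other overlap it, so these reads could belong to them. Of the hosts with a symbol of the form MIR...HG, 4 of 46 annotated as lincRNAs were listed, or 8.70%, against 2.69% of all annotated lincRNAs; 3 were higher and 1 lower, where 75.6% of listed lincRNAs were higher.

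Over the whole table, 130 of the 205 lincRNAs, or 63.4%, had the direction of the nearest listed protein-coding gene by gene start, against 58.9% of protein-coding genes set against their own nearest listed coding gene. The agreement lay at short distances. With starts under 5 kb apart the direction was the same for 8 of 8 lincRNAs and for 83.3% of 60 protein-coding genes, and from 5 to 50 kb for 84.2% of 38 lincRNAs and 70.6% of 523 protein-coding genes. From 50 to 500 kb it was 57.1% of 98 lincRNAs and 56.6% of protein-coding genes, and beyond 500 kb 55.7% and 52.6%.

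Measured by the gap between gene bodies, 31 of 33 lincRNAs within 5 kb, or 93.9%, had the direction of the nearest listed coding gene, against 73.7% of 384 protein-coding genes. Leaving out pairs whose bodies overlap, in which unstranded reads could be counted for either gene, it was 22 of 23 lincRNAs and 71.5% of 221 protein-coding genes. The 2 exceptions were U73166.1, which rose while GNAI2, a G protein subunit gene upstream of it, fell, and Z97832.2, which lies over SCUBE3. From 50 to 500 kb the share by gap was 49.4% of 83 lincRNAs. These shares were not tested, since neighbouring genes are not independent and the distance classes were set with results of these data known.

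**Figure D3:**
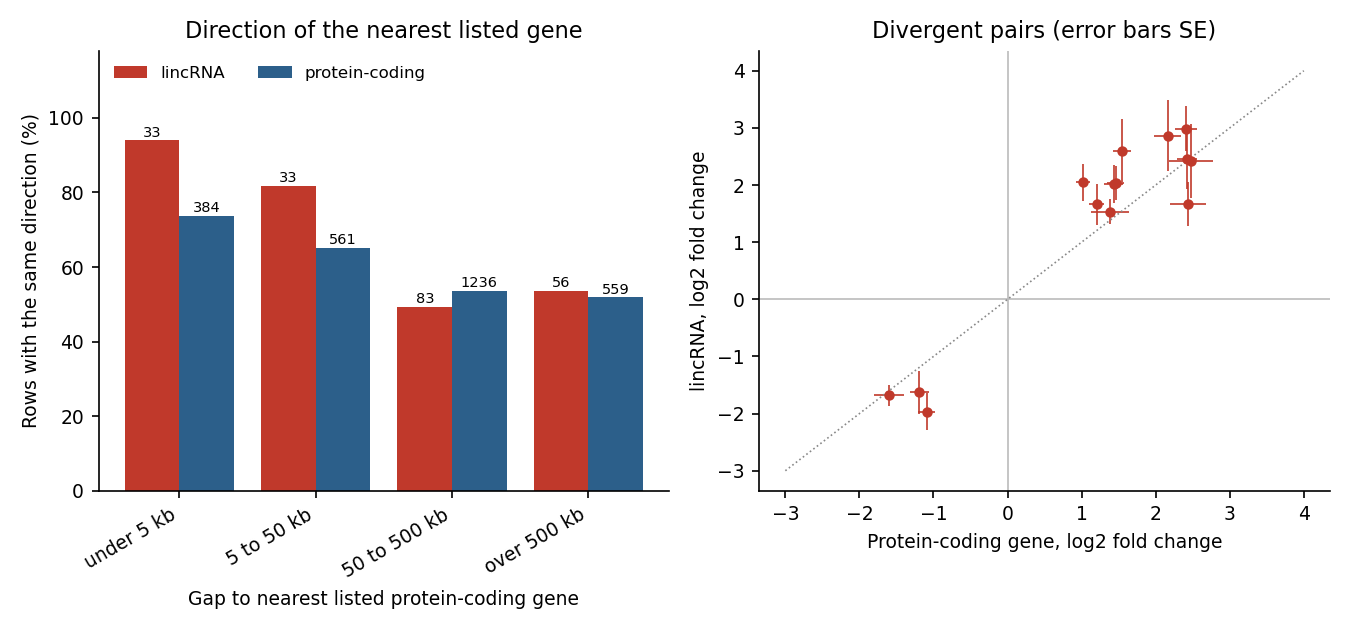
Left, bars give the percentage of lincRNAs and of protein-coding genes with the direction of the nearest listed protein-coding gene, by the gap between gene bodies, with the number of genes above each bar. Right, each point is 1 of 14 divergent pairs, with the log2 fold change of the lincRNA on the vertical and of its coding partner on the horizontal axis and standard errors as bars. All 14 lie in the quadrants of equal sign. In 12 the lincRNA has the larger change, but a gene of few reads is listed only with a larger change.

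A start within 2 kb of the start of an annotated protein-coding gene on the other strand was found for 54 lincRNAs, or 26.3%, against 15.5% of protein-coding genes. In 13 of the 54 pairs the gene bodies overlapped, and in the others the genes read away from each other. The coding partner was itself listed for 14 of the 54, or 25.9%, against 19.6% of the 424 such protein-coding genes. In all 14 pairs the lincRNA and its partner had the same direction, 11 higher and 3 lower, against 71 of 83 protein-coding pairs, or 85.5%. The 14 include 3 whose bodies overlap the partner, AL139220.2, AL445483.1 and C9orf163. The lincRNA had the larger absolute log2 fold change in 12 of the 14, and the median absolute changes were 2.03 for lincRNAs and 1.502 for partners. Low counts widen the spread of the lincRNA changes, and only 6 of the 14 lincRNAs had a mean of at least 20. Both genes of a pair had to be listed, and a gene of few reads is listed only with a larger change. The larger changes of the lincRNAs can thus follow from that choice, and they were not compared at equal level.

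DNAJC3-DT starts 214 bases from DNAJC3, which encodes a cochaperone of the endoplasmic reticulum. The lincRNA had 47.1, 81.5 and 39.3 normalised reads with the combination, against 11.7, 13.8 and 11.7 with DMSO, a log2 fold change of 2.02 ± 0.33 (SE). DNAJC3 had 3462, 4589 and 4585 with the combination, against 1542, 1450 and 1650 with DMSO, a log2 fold change of 1.43 ± 0.13. Both genes were separated between groups, as was 99.0% of the table. The difference between their changes of 0.59 was under 2 standard errors of the lincRNA.

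OSER1-DT starts 169 bases from OSER1, a gene named for its response to oxidative stress. It had 47.1, 65.8 and 67.0 normalised reads with the combination, against 10.7, 13.8 and 17.1 with DMSO, a log2 fold change of 2.04 ± 0.30 (SE), and OSER1 one of 1.46 ± 0.11. ZNF674-AS1, the closest pair at 36 bases, had 121.7, 96.4 and 90.0 with the combination, against 33.2, 38.6 and 32.0 with DMSO, a log2 fold change of 1.53 ± 0.23, and the zinc finger gene ZNF674 one of 1.38 ± 0.26. AC108471.2, now SMIM14-DT, starts 50 bases from SMIM14 and had a log2 fold change of 2.99 ± 0.39, against 2.41 ± 0.15 in SMIM14. BSN-DT had 5.48, 11.1 and 0.958 with the combination and no read with DMSO. Against a floor of 3 reads, with its uneven treated mean taken as exact, it was at least 5.93-fold higher. BSN, the gene of a presynaptic scaffold, had a log2 fold change of 2.48 ± 0.30. These are the pairs whose shared stretches are printed above.

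Other higher pairs joined AC015912.3 with the ubiquitin ligase gene TRIM25 (log2 fold changes of 2.05 and 1.02), C9orf163 with SEC16A of the endoplasmic reticulum exit sites (1.66 and 1.20) and SH3RF3-AS1 with SH3RF3 (2.86 and 2.16). In the remaining higher pairs AL445483.1 stood with DDX59, AL139220.2 with the glycine transporter gene SLC6A9 and AL365181.2 with BCAN. C9orf163, AL445483.1 and AL139220.2 lie over a coding gene body, so reads of both genes could be mixed there.

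The 3 lower pairs were FOXD2-AS1 with the forkhead gene FOXD2, AC061992.1 with SOCS3, an inhibitor of cytokine signalling, and AL133215.2 with KAZALD1. FOXD2-AS1 had 66.9, 63.9 and 75.7 normalised reads with the combination, against 256.9, 222.2 and 192.1 with DMSO, a log2 fold change of -1.68 ± 0.18 (SE), next to -1.60 ± 0.20 in FOXD2. AC061992.1 had 7.67, 11.1 and 6.70 with the combination, against 30.3, 38.6 and 18.1 with DMSO, and SOCS3 had a log2 fold change of -1.19 ± 0.13. No library overlapped between groups in these pairs, as for 99.0% of the table.

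Some close neighbours were not divergent pairs by this rule. LINC02593 lies 2912 bases from SAMD11, which had 25.2, 13.9 and 23.9 normalised reads with the combination, against 346.8, 432.4 and 258.3 with DMSO; their log2 fold changes were -3.30 and -3.99. U62317.1, 2985 bases from the kelch domain gene KLHDC7B, had 41.6, 13.0 and 24.9 with the combination, against 0, 0.918 and 0 with DMSO, a ratio of 86.6 with a counting interval of 13.7 to 3134. KLHDC7B had the largest log2 fold change in the table, 7.55 ± 0.38 (SE). LINC01291 (1.29 ± 0.32) lies 24789 bases from HK2, the gene of a hexokinase (1.87 ± 0.13), and AC003092.1 (1.28 ± 0.25) lies 18451 bases from BET1, which encodes a vesicle fusion protein (1.85 ± 0.14).

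Reading on from the end of a coding gene on the same strand, within 5 kb, was the arrangement of 15 lincRNAs, with 5 partners listed and 4 of equal direction. For 344 protein-coding genes in this arrangement, 18.9% of partners were listed. Of these 65 pairs, 73.8% had equal direction. AC107068.1, 2894 bases after NFXL1, had 238.9, 226.1 and 212.6 normalised reads with the combination, against 85.0, 104.7 and 123.8 with DMSO. AC011450.1 after TEAD2, AL023803.2 after FAM83D and CYP4A22-AS1 after PDZK1IP1 also had the direction of the upstream gene. AC011450.1 also overlaps an exon of CD37, which itself had a log2 fold change of -3.27 ± 0.39 (SE), so its reads could be those of CD37. U73166.1 after GNAI2 had the opposite direction. Whether reads run on from the upstream gene was not tested.

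For the promoters, 89 lincRNAs matched a RefSeq window of 250 bases before to 50 bases after a start, 72 of them within 1 kb of the GENCODE start, 56 higher and 16 lower. CCACG, searched on both strands, was in 55.4% of the windows of higher lincRNAs and 43.8% of those of lower ones, against 38.1% of all 35116 windows. For GCGTG the shares were 51.8% and 43.8%, against 36.5%. The AP-1 motif TGANTCA was in 12.5% of the windows of higher lincRNAs and in none of the 16 of lower ones, against 7.71%. The E-box CACGTG, which overlaps the CCACG search only where a C precedes or a G follows it, was in 12.5% and 6.25%, against 7.26%. TGACNNNGC was in 14.3% and 12.5%, against 13.3%, and TGATGNAA, the composite element of ATF4, in none of the 72, against 3.62%. The cyclic AMP element TGACGTCA was in 1.79% of the windows of higher lincRNAs and none of lower ones, against 1.85%, and neither E2F motif, TTTCGCGC nor TTTGGCGC, was in any of the 72, against 0.515% and 0.652%. A motif match describes letters in a window, and base composition was not matched.

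With ezetimibe alone, the authors' table held 18 lincRNAs of 472 genes, 11 higher and 7 lower, or 61.1% higher (Wilson interval 38.6 to 79.7%), against 77.6% of 398 protein-coding genes. All 18 passed limma's adjusted p of 0.05, beside 99.8% of the table, of which 77.5% was called higher and 22.2% lower. Of these, 15 were members of the 205, which is 83.3% of the ezetimibe lincRNAs and 7.32% of the combination lincRNAs. AC026250.1, URB1-AS1 and AC011978.2 were listed with ezetimibe only. URB1-AS1 had 47.4, 53.7 and 50.4 normalised reads with ezetimibe, against 20.6, 37.8 and 13.9 with DMSO, a log2 fold change of 1.15 ± 0.33 (SE), while AC026250.1 had one of -1.06 ± 0.28 and AC011978.2 of -1.35 ± 0.40. Fenofibrate alone had 102 listed genes and 1 lincRNA, AL035071.1, which is not among the 205. It was higher, as was 91.2% of that table, and 100% of it passed the test. It had 94.9, 229.9 and 89.6 normalised reads with fenofibrate, against 65.8, 50.9 and 73.0 with DMSO. Without fenofibrate replicate 2 its log2 fold change was 0.55, against 0.99 with all libraries, and without DMSO replicate 2 it was not called. No member could be compared between the combination and fenofibrate, since none is in that table.

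**Figure D4:**
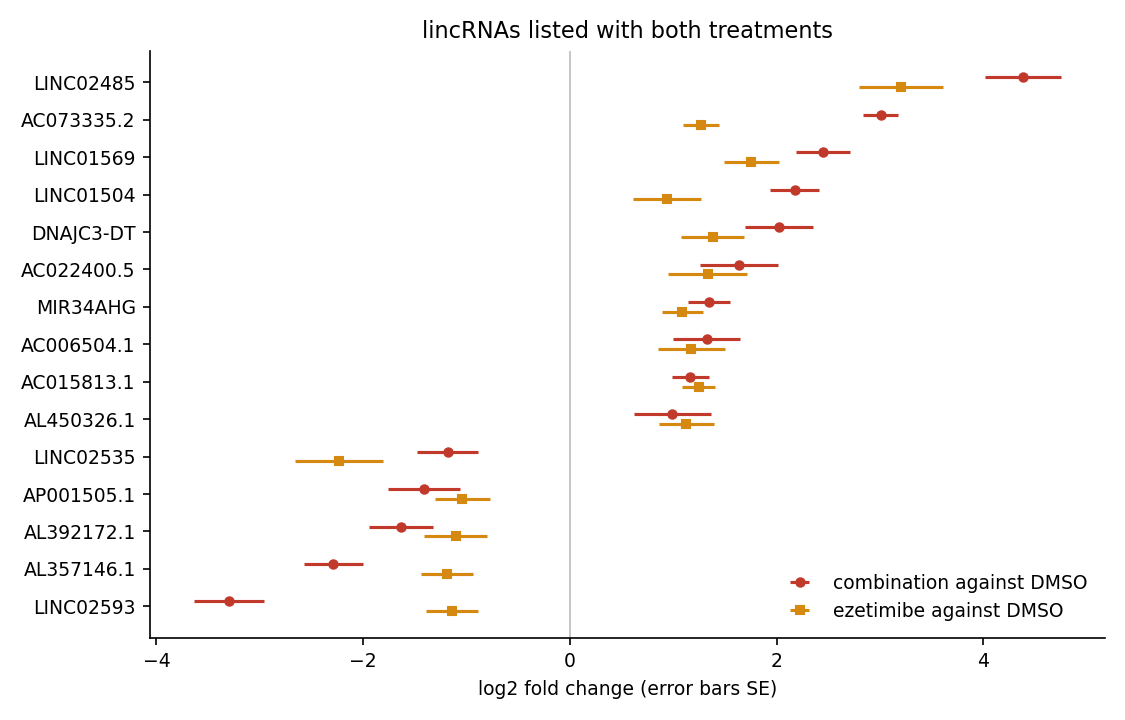
The 15 lincRNAs listed with both treatments, with the log2 fold change against DMSO on the horizontal axis; circles are the combination, squares ezetimibe, and bars standard errors. Both symbols share the same 3 DMSO libraries. With the authors' scaling LINC02593, AC073335.2 and LINC01504 show wide gaps, while AC015813.1 and AL450326.1 lie close together. With equal summed values the difference of LINC01504 was 0.33 and not called, and AC015813.1 and AL450326.1 no longer lie close together.

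Both changes against DMSO rest on the same DMSO libraries, so the treatments were compared directly, a contrast that the authors' lists did not use. The genes compared had all been listed with both treatments, from these same libraries. The values of both treated groups thus bear on which genes were compared, and members listed with the combination alone are not covered. Ezetimibe values below are on the scale of their own table, and the mean ratio of the combination scale to it was 0.997. Of the 15 shared lincRNAs, 7 differed between the combination and ezetimibe (limma, adjusted p under 0.05 over the 359 shared genes), against a background of 63.2%. Higher with the combination were 5 and lower 2, where 53.2% of the shared genes were called higher and 10.0% lower. The median difference over all shared genes was 0.53 on the log2 scale. If the summed values of the shared genes were set equal this median became -0.37 and the higher share of all calls 29.4%, against 84.1% with the authors' scaling. Those sums cover listed genes only, so setting them equal takes out any net change of these genes, real or not. It cannot show which scaling is right. With equal sums AC073335.2 (0.82), LINC02593 (-2.998) and AL357146.1 (-1.92) kept their calls and directions. LINC01504 (0.33, limma adjusted p = 0.363), LINC02485 (0.27, adjusted p = 0.532), LINC02535 (0.22, adjusted p = 0.644) and LINC01569 (-0.21, adjusted p = 0.435) lost theirs. AC015813.1 (-1.001), AL450326.1 (-1.03), AL392172.1 (-1.37), AP001505.1 (-1.25) and MIR34AHG (-0.65) were then called lower with the combination. The differences below use the authors' scaling, and the call depends on that scaling for all these but the first 3.

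Of the shared lincRNAs, AC073335.2 had the lowest limma adjusted p with the authors' scaling. With equal summed values LINC02593 had the lowest (limma adjusted p = 5.63e-06). AC073335.2 had 436.2, 401.2 and 363.9 normalised reads with the combination, 135.1, 118.7 and 106.4 with ezetimibe, and 45.9, 45.9 and 55.5 with DMSO. The 3 groups did not overlap, and the log2 difference between the combination and ezetimibe was 1.74 ± 0.16 (SE; limma adjusted p = 8.23e-07), or 0.82 with equal summed values. LINC01504 had 109.6, 110.3 and 107.3 with the combination, 56.7, 26.8 and 62.7 with ezetimibe, and 21.5, 29.4 and 20.3 with DMSO, a log2 difference of 1.24 ± 0.29 (adjusted p = 0.00232) that was lost with equal summed values. One ezetimibe library of LINC01504 fell within the DMSO range, and its change with ezetimibe was not called without ezetimibe replicate 1 or without ezetimibe replicate 3. LINC02485 had 50.5, 38.2 and 46.6 with ezetimibe, between the combination and DMSO values above, and a log2 difference of 1.18 ± 0.33 (adjusted p = 0.00627) that was also lost with them.

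LINC01569 had 63.9, 48.5 and 51.3 normalised reads with ezetimibe and was higher with the combination by 0.70 ± 0.23 on the log2 scale (limma adjusted p = 0.0171). That difference was -0.21 with equal summed values, and it was not called without combination replicate 3, without ezetimibe replicate 2 or without ezetimibe replicate 3. LINC02535 was lowest with ezetimibe, with 15.3, 14.8 and 10.5 with the combination, 3.09, 6.19 and 10.5 with ezetimibe, and 31.3, 34.0 and 29.9 with DMSO. Its log2 difference of 1.05 ± 0.40 (adjusted p = 0.0364) was not called without combination replicate 1 or 2, ezetimibe replicate 1 or 2, or DMSO replicate 2, and it was 0.67 without ezetimibe replicate 1 and 0.22 with equal summed values.

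Lower with the combination than with ezetimibe were LINC02593 and AL357146.1, now LINC02941. LINC02593 had 53.6, 56.7 and 38.0 normalised reads with ezetimibe, between its combination and DMSO values, and its log2 difference was -2.16 ± 0.31 (SE; limma adjusted p = 3.86e-05). AL357146.1 had 8.77, 9.27 and 8.62 with the combination, 18.6, 24.8 and 18.1 with ezetimibe, and 50.8, 42.2 and 49.1 with DMSO, a log2 difference of -1.10 ± 0.28 (adjusted p = 0.00339), or -1.92 with equal summed values. Both were stepped, with every library of the combination below every ezetimibe library and those below every DMSO library.

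The other 8 did not pass the test with the authors' scaling, which does not show that the treatments act alike on them. MIR34AHG had 117.5, 77.4 and 96.9 normalised reads with ezetimibe, which overlap the combination libraries, and a log2 difference of 0.26 ± 0.20 (SE; limma adjusted p = 0.268). DNAJC3-DT had 41.2, 26.8 and 35.2 with ezetimibe and a difference of 0.64 ± 0.31 (adjusted p = 0.0861), which passed without combination replicate 3 (adjusted p = 0.0430). AC015813.1 had 268.5, 275.2 and 270.0 with the combination, 294.9, 285.8 and 284.1 with ezetimibe, and 155.3, 105.6 and 106.7 with DMSO, a difference of -0.08 ± 0.16 (adjusted p = 0.673), which was -1.001 with equal summed values (adjusted p = 0.000212). An exon of AC015813.2 overlaps it. AL450326.1 was 1 of the 6 lincRNAs whose combination and DMSO libraries overlapped. It had 62.5, 63.0 and 28.7 with the combination, 49.5, 57.8 and 53.2 with ezetimibe, and 16.6, 29.4 and 27.8 with DMSO, and its change with the combination was not called without combination replicate 1, combination replicate 2 or DMSO replicate 1. For AC006504.1, AC022400.5, AL392172.1 and AP001505.1 the differences ran from -0.53 to 0.31.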

How the data were processed

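RNA of Cal51 cells was sequenced in 18 libraries, of which 12 in 4 groups of 3 were used. Per the submitters' processing notes, the build was hg38 and the tools were featureCounts 1.5.0-p3, HISAT2 2.0.5 and fastp. No source used here says whether reads were counted by strand. Per the file headers, each table deposited by the authors holds a signal per library, a log2 fold change and p-values. By its values this signal is reads over 1 factor per library: for the combination, 100% of values came out whole within 0.01. Coordinates of all 205 lincRNAs equalled GENCODE release 29.

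Signals were fitted with limma 3.58.1 (trend, R 4.3.3) on log2(value + 1), 2-sided, with Benjamini-Hochberg adjustment over all genes of a table and a threshold of 0.05. The pseudocount of 1 understates changes of low genes. For the combination against ezetimibe, 359 shared genes were put on 1 scale through their DMSO columns (mean ratio 0.997). edgeR 4.0.16 and DESeq2 1.42.0 were run on the recovered reads of the combination table only, calling 3508 and 3506 of its 3508 genes. Intervals are 95% (Wilson for shares, exact for ratios of counts) and cover counting error only. Folds given as at least set the empty group to a floor of 3 reads and take the mean of the other group as exact. They leave out the counting error of that mean. Summaries used python 3.11.15, pandas 2.3.3 and scipy 1.17.1, and scripts were tested on simulated data.

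Named by rule were the 10 largest rises and falls by the authors' log2 fold change whose mean was 50 or more and whose groups did not overlap (8 falls qualified), lincRNAs shared with another table, the 8 highest per kb, the 8 with a mean of at least 50 closest to a listed coding gene, and listed microRNA hosts, small nucleolar RNA hosts and well-known lincRNAs. Others were chosen after their values were seen. The members, lists, motifs and distance windows were chosen with earlier results of these data known.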

Additional observations from a re-analysis of the deposited data

How the results depend on the processing

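The share of lincRNAs higher with the combination stayed at 75.6% under every alternative except a mean of at least 20, where it was 73.3% of 101. That filter leaves 101 lincRNAs, and 101 were called. All 205 were called with a pseudocount of 5, equal summed values, edgeR, DESeq2 and by the authors' deposited table, and 196 to 203 when 1 library was left out. No direction against DMSO reversed with the combination when a library was left out. The calls lost belong to 9 lincRNAs, among them LINC01097, SUCLG2-AS1, AP001527.2 and AC092807.3; without combination replicate 1 the log2 fold change of LINC01097 was 1.26, against 2.22. The median log2 fold change of 1.77 was 1.20 with a pseudocount of 5, 1.32 with the filter, 1.93 with equal summed values, 1.89 in the authors' deposited table, 1.88 with edgeR, 1.89 with DESeq2 and 1.73 to 1.84 with a library left out. The filter removes low genes and the pseudocount shrinks them. The share with the direction of the nearest listed coding gene was 63.4%, 62.9% by the gap between gene bodies and 58.4% with the filter.

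With ezetimibe 17 to 18 lincRNAs were called with a library left out and 11 with equal summed values, which lost AC006504.1, AC022400.5, AL450326.1, DNAJC3-DT, LINC01504, MIR34AHG and URB1-AS1. That scaling moved the median of all ezetimibe genes by -0.70, of all fenofibrate genes by -1.29 and of all combination genes by 0.17 on the log2 scale, and for ezetimibe lowered the share of calls that were higher to 69.0%, against 77.7%, and for fenofibrate to 53.8%, against 91.2%. The sums cover only genes already listed as changed, and they were larger with ezetimibe and with fenofibrate than with DMSO. Setting them equal lowers the changes by construction, so the lost calls do not show which scaling is right. The lincRNA of the fenofibrate table was not called with equal summed values (0 calls), nor without DMSO replicate 2 (0 to 1 calls with a library left out). Between the combination and ezetimibe 5 to 7 lincRNAs were called with a library left out and 8 with equal summed values. These are not the same lincRNAs: LINC01504, LINC02485, LINC02535 and LINC01569 (-0.21) lost their calls, and AC015813.1, AL450326.1, AL392172.1, AP001505.1 and MIR34AHG (-0.65) were called lower.

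Libraries of equal replicate number share only a number: the correlations of their deviations between combination and DMSO were 0.045, -0.200 and 0.093. The replicate block left 205, 18 and 1 calls against DMSO and 6 of 15 between the combination and ezetimibe, where LINC02535 had an adjusted p of 0.0571. edgeR and DESeq2 were not run on the other tables, for which recovery of whole reads was not attempted. The 104 lincRNAs with a mean under 20 are those whose folds depth limits most.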

Other observations

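Among the 205 lincRNAs, 11 pairs lay within 50 kb of each other, and in all 11 both members had the same direction. Since 75.6% of all listed lincRNAs were higher, many unrelated pairs would share a direction too. The window was chosen after the data were seen, and the agreement was not tested. The gap was 0 bases for AC078923.1 with AC078820.1 and for FAM157C with AC133919.2, so reads could be mixed in these pairs. LINC00662 (log2 fold change 1.42 ± 0.17, SE) contains AC006504.1 (1.32 ± 0.33) on the same strand, so reads of both could be mixed there. LINC01293 had 9.86, 12.0 and 14.4 normalised reads with the combination and no read with DMSO, at least 12.2-fold higher against a floor of 3 reads. It lies next to LINC01291 on the same strand (1.29 ± 0.32). In the lower direction BLACAT1, known from bladder cancer, had 14.2, 17.6 and 24.9 with the combination, against 71.3, 48.7 and 73.6 with DMSO, and AC098936.1 at 18.05 kb from it had no read with the combination. AC005307.1 and AC005381.1, 7.57 kb apart on the same strand, had log2 fold changes of -3.34 ± 0.48 and -2.77 ± 0.57.

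Divergent transcripts named with the suffix DT were 29 of the members, 21 higher and 8 lower, or 72.4% higher, against 75.6% of all listed lincRNAs. BMPR1B-DT, the steepest fall of all members by log2 fold change at -3.67 ± 0.48 (SE), had 0, 1.85 and 0.958 normalised reads with the combination, against 17.6, 18.4 and 31.0 with DMSO. It was named after its values were seen.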
